A study of Homo sapiens with 27 samples.

Results

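SUM159 and MDA-MB-231 are established human cell lines of triple-negative breast cancer, the class of tumours without oestrogen receptor, progesterone receptor or amplified HER2, and both are used as models of its mesenchymal, claudin-low form. The comparison took 6 of the 27 RNA-seq libraries of the series, 3 of SUM159 and 3 of MDA-MB-231, chosen by their labels as the untransduced wild type libraries that were sequenced together in run 2. Neither group carried dCas9-KRAB or a gRNA. SUM159 was grown in F12 medium with Hepes, hydrocortisone at 1 µg/mL, insulin at 5 µg/mL and 10% serum, whereas MDA-MB-231 was grown in high-glucose DMEM with pyruvate and 10% serum, so that line and medium cannot be told apart in any value given here. Each line stands for a single tumour. The labels call the 3 libraries of a line biological replicates without naming separate thaws, and the study's methods describe its RNA-seq replicates as individual clones. The p-values measure only the spread between these libraries. A second reading of SUM159 came from its 3 wild type libraries of run 1; those fold changes share the MDA-MB-231 libraries with the main comparison, and in them run and line cannot be told apart.

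Epithelial cells are held together by E-cadherin, desmosomes and claudin-based tight junctions and carry simple keratins such as keratins 8, 18 and 19. In an epithelial to mesenchymal transition (EMT), transcription factors of the ZEB, SNAIL and TWIST families bind E-box sequences in the promoters of junction genes and repress them, while vimentin, N-cadherin and matrix genes are switched on. ZEB1 and the miR-200 family of microRNAs repress each other, so that a cell tends to hold one or the other. MDA-MB-231 is known to carry mutant BRAF and SUM159 mutant HRAS and PIK3CA; variants were not analysed here.

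Sequences are shown for microRNAs whose host transcripts were measured, because the miR-200 family is part of the EMT circuit, and for E-boxes in promoters of epithelial genes; neither mature microRNAs nor binding was measured. Mature sequences from RefSeq (GRCh38.p14) are given 5′ to 3′ with the seed, bases 2 to 8, in capitals. The host of miR-200c and miR-141 was at 0 counts in all 6 libraries, the hosts of miR-221, miR-222, miR-15a, miR-16, miR-503, miR-23a, miR-27a and miR-24 were among those higher in MDA-MB-231, and the host of miR-155 was detected in SUM159 alone.
hsa-miR-200c-3p: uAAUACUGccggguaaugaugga
hsa-miR-141-3p: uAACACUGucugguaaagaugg
hsa-miR-221-3p: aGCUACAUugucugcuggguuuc
hsa-miR-222-3p: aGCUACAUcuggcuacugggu
hsa-miR-15a-5p: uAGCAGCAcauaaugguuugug
hsa-miR-16-5p: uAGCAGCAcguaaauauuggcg
hsa-miR-424-5p: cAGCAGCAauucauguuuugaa
hsa-miR-503-5p: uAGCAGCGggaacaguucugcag
hsa-miR-23a-3p: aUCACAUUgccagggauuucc
hsa-miR-27a-3p: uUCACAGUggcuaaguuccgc
hsa-miR-24-3p: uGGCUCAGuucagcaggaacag
hsa-miR-155-5p: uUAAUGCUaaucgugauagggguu
miR-221 and miR-222 share the seed GCUACAU, and miR-15a, miR-16 and miR-424 share AGCAGCA, while miR-503 has AGCAGCG. miR-200c and miR-141, although made from one host, have the separate seeds AAUACUG and AACACUG.

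Promoter windows of 30 bases on GRCh38.p14 are printed for epithelial genes that were higher in MDA-MB-231, on the strand of the gene, with the E-box CAGGTG or its reverse complement CACCTG in capitals. This is the sequence that ZEB and SNAIL factors are known to bind.
CLDN7, chr17:7262481-7262510, minus strand: cctacatatactCAGGTGcgcccCACCTGt
DSP, chr6:7541481-7541510, plus strand: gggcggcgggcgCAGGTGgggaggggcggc
SPINT1, chr15:40844439-40844468, plus strand: tcccgggctgatCAGGTGtgtctcctcctc
MLPH, chr2:237487118-237487147, plus strand: gcgcgggcgcccCAGGTGtccgttccgttc
ELF3, chr1:202010455-202010484, plus strand: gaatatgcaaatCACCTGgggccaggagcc
Of 27 epithelial genes higher in MDA-MB-231 (junction, claudin, keratin, luminal and regulator lists), 15 had an entry in the promoter table, with 23 promoters reaching from 250 bases before to 50 bases after a start site. Of these promoters 8 held CAGGTG on either strand (34.8%), each of a different gene, against 20.6% of all 35116 promoters and 18.3% of the 16228 promoters of tested genes. Only epithelial genes already called higher in MDA-MB-231 were searched, from lists chosen with earlier results of these data known. These shares are therefore a description and not a test. A match is a sequence in a window and says nothing about binding in these cells.

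Libraries held 15461200 to 17124402 estimated counts, and 15110 genes passed the filter on low counts. The unit of all levels is CPM, each library being scaled to the same total after TMM adjustment, and log2 fold changes are positive where SUM159 was higher. A gene was called when its change passed the TREAT test against a 2-fold difference, with an adjusted p under 0.05. The exact permutation test of 3 against 3 libraries cannot go below p = 0.1, so it was used for no call. The lines differed widely: 4399 genes were called (29.1%), of which 1970 were higher in SUM159 (13.0%) and 2429 higher in MDA-MB-231 (16.1%). Against a difference of 0, limma's moderated test called 75.5% of genes. The 3 values of one line lay wholly outside those of the other in 78.4% of genes, with SUM159 above in 38.4% and MDA-MB-231 above in 39.9%, so a gap between the lines is the usual state of a gene here. Within a line, log2 CPM of any pair of libraries correlated at 0.984 to 0.986 across genes, and between lines at 0.732 to 0.737. With the run 1 libraries of SUM159 in place of those of run 2, 29.0% of genes were called.

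Some markers of the labels were at or near 0 in both lines, and others were not. ESR1, the oestrogen receptor gene, was at 0 in SUM159 and at 0.191, 0.109 and 0.0606 CPM in MDA-MB-231, and PGR did not exceed 0.0964 CPM in any library. ERBB2, which encodes HER2, was present in both lines, at 59.8, 67.1 and 67 CPM in SUM159 and 46.4, 42 and 52.5 CPM in MDA-MB-231. Its log2 fold change of 0.46 ± 0.096 (SE) did not pass the test.

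Of the genes that define the claudin-low class, CDH1 (E-cadherin) reached at most 0.153 CPM and CLDN3 at most 1.08 CPM in any of the 6 libraries. The others were low in SUM159 and higher in MDA-MB-231. CLDN4 was at 0.402, 0.764 and 1.15 CPM in SUM159 and 69.6, 66.5 and 70.5 CPM in MDA-MB-231. CLDN7 had 0.204, 0 and 0 CPM in SUM159 and 19.1, 19.7 and 16 CPM in MDA-MB-231, and EPCAM, an epithelial surface glycoprotein, 0.119, 0.358 and 0.0479 CPM in SUM159 and 13.6, 13.4 and 11.4 CPM in MDA-MB-231. The lines did not overlap for any of these 3 genes, MDA-MB-231 being the higher in each. No epithelial line was among the 6 libraries, so whether these levels are low for an epithelial cell was not tested. Markers of other cell types that defined leukocytes were at or near 0: PTPRC, the common leukocyte antigen, reached at most 0.0549 CPM, and CD3E, MS4A1 and TYROBP were at 0 in all 6 libraries. CD68, which is also a lysosomal gene of many cells, was the leukocyte marker that was called, with means of 30.9 ± 2 CPM in SUM159 and 110.2 ± 3.57 CPM in MDA-MB-231 (SD, n = 3). Of 8 endothelial markers 4 passed the filter, and 3 were called: ERG was higher in SUM159 and KDR and TIE1 were higher in MDA-MB-231, while CDH5 and VWF did not exceed 0.362 CPM. Of 4 melanocyte and neural markers tested, MAP2 was higher in SUM159, GFAP was higher in MDA-MB-231, and SOX10 and MLANA did not exceed 0.619 CPM in any library. In bulk RNA a lower level can mean fewer cells with a transcript or less of it per cell, and these cannot be told apart.

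ZEB1, the EMT factor targeted elsewhere in the series, was at nearly the same level in both lines. It had 82.8, 79.8 and 80.4 CPM in SUM159 and 77.2, 68.2 and 73.1 CPM in MDA-MB-231. The log2 fold change was 0.16 ± 0.061 (SE), with an adjusted p of 1 by TREAT and 0.0487 by the moderated test against 0. All 3 SUM159 values were above the 3 MDA-MB-231 values, by a narrow margin.

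The other EMT factors divided the lines more sharply than ZEB1. Of 12 listed factors that passed the filter, 6 were called higher in SUM159 and 2 higher in MDA-MB-231. ZEB2, the paralogue of ZEB1, was at 56.5, 55.7 and 47.2 CPM in SUM159 and 13.6, 16.9 and 15.3 CPM in MDA-MB-231. That is a log2 fold change of 1.79 ± 0.12 (SE, adjusted p = 0.000989). TWIST2, a basic helix-loop-helix factor, was at 40.2, 36.9 and 35 CPM in SUM159 and at 0 in every MDA-MB-231 library, so that it was at least 622-fold higher. TWIST1 was at 3.32, 3.79 and 2.44 CPM against 0 in all 3, at least 53-fold higher. FOXC2, a forkhead factor of mesenchyme, had 54.3, 54.8 and 56 CPM in SUM159 and 0, 0.119 and 0.113 CPM in MDA-MB-231. TCF4 and SOX4 were also called higher in SUM159, with log2 fold changes of 5.76 ± 0.45 and 2.04 ± 0.093 (SE). Both TWIST genes and FOXC2 were thus at or near 0 in MDA-MB-231.

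In the opposite direction, HMGA2, a chromatin protein of embryonic cells, was at 3.06, 4.23 and 4.2 CPM in SUM159 and 107, 98.4 and 102 CPM in MDA-MB-231. Its log2 fold change was -4.75 ± 0.16 (SE, adjusted p = 2.01e-06). SOX9, a progenitor cell factor, had 1.29, 1.3 and 0.845 CPM in SUM159 and 145, 140.4 and 143 CPM in MDA-MB-231, and a log2 fold change of -6.95 ± 0.20 (SE, adjusted p = 8.90e-07). The 2 SNAIL genes were not called: SNAI1 had a log2 fold change of 1.18 ± 0.15 and SNAI2 of 0.71 ± 0.087 (SE). Their values depended on the SUM159 libraries used, since with run 1 the changes were -0.45 and 2.70, and the latter was called. The median over the 12 factors was 1.49, against -0.0071 over all genes tested.

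Regulators of the epithelial state were called in both directions. GRHL2, OVOL1 and OVOL2, factors that hold cells epithelial, were at or near 0 in both lines, with no library above 0.108 CPM. Of 12 epithelial regulators tested, 4 were higher in SUM159 and 3 higher in MDA-MB-231. TP63, the basal cell factor, was at 38.5, 35.2 and 35.4 CPM in SUM159 and 0, 0.302 and 0.601 CPM in MDA-MB-231, a ratio of 114 (counting interval 69.8 to 199). GATA3, a luminal factor, was at 13.7, 9.28 and 12.6 CPM in SUM159 and 4.09, 2.61 and 2.73 CPM in MDA-MB-231, with a log2 fold change of 1.92 ± 0.25 (SE, adjusted p = 0.0154), a call that was lost without MDA-MB-231 replicate 2 or 3 (1.8 and 1.83). KLF5 and GRHL3 were the other 2 regulators that were higher in SUM159. EHF, an ETS factor of glandular epithelium, was at 0, 0.0505 and 0.0646 CPM in SUM159 and 24.8, 28.2 and 25.6 CPM in MDA-MB-231, and ELF3 at 0.102, 0.114 and 0.259 CPM in SUM159 and 1.54, 2.69 and 2.52 CPM in MDA-MB-231. Both were higher in MDA-MB-231, as was TFCP2L1, but ELF3 and TFCP2L1 were not called with run 1 (-1.57 and -2.90), which gave 4 regulators higher in SUM159 and 1 higher in MDA-MB-231. ESRP1, which directs epithelial splicing, was not called, at a log2 fold change of 1.58 ± 0.53 (SE) that was -1.45 with the run 1 libraries and 2.22, and called, without MDA-MB-231 replicate 2.

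Junction and surface genes that were called were mostly higher in MDA-MB-231. Of 34 listed, 22 passed the filter; 11 of them were called higher in MDA-MB-231 and 1 higher in SUM159 (2 without MDA-MB-231 replicate 1, and 3 with run 1), and their median log2 fold change was -1.37. The filter can be passed by the high line alone, so such counts describe the lists and are not a test of them. SPINT2, an inhibitor of membrane serine proteases, was at 0.473, 0.288 and 1.44 CPM in SUM159 and 339.6, 324 and 323 CPM in MDA-MB-231, a log2 fold change of -9.05 ± 0.42 (SE, adjusted p = 5.10e-06). The desmosome genes DSP, PKP2 and DSC2 were lower in SUM159, with log2 fold changes of -4.02 ± 0.19 and -5.28 ± 0.23 (SE) for DSP and PKP2. F11R and CGN of the tight junction were lower in SUM159 too, as were LSR and SPINT1. JUP, the desmosome protein plakoglobin, was the exception, at 55, 49.5 and 56.9 CPM in SUM159 and 22.1, 18.4 and 16.5 CPM in MDA-MB-231. Of 6 claudins tested, 3 were higher in MDA-MB-231, with a median of -3.51, or -3.04 with the gene at 0 taken at its bound. CLDN1 was the claudin higher in SUM159, at 108, 109 and 111 CPM in SUM159 and 30, 30.6 and 29.5 CPM in MDA-MB-231, a log2 fold change of 1.87 ± 0.056 (SE, adjusted p = 1.19e-05). CLDN1 and JUP were thus the junction and claudin genes that were called higher in SUM159. Without regard to calls, all 3 SUM159 values lay above those of MDA-MB-231 for 5 of the 22 junction and surface genes, and below for 14. Among the 6 claudins 2 lay above and 4 below. Over all genes tested these shares were 38.4% and 39.9%.

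Keratins were split as well, with 3 of 10 tested higher in SUM159 and 6 higher in MDA-MB-231. KRT19 was at 0.29, 0.132 and 0.291 CPM in SUM159 and 166, 169 and 172 CPM in MDA-MB-231, a ratio of 704 (counting interval 393 to 1410). KRT8 had 94.6, 95.8 and 83.8 CPM in SUM159 and 648, 626 and 646 CPM in MDA-MB-231, and KRT18 had a log2 fold change of -1.93 ± 0.037 (SE, adjusted p = 1.73e-06). These 3 simple keratins of luminal cells were all higher in MDA-MB-231. SUM159 was higher in KRT7, at 1046, 1054 and 1073 CPM in SUM159 and 193, 181 and 179 CPM in MDA-MB-231, and in KRT75, a hair follicle keratin, at 132, 126 and 130.5 CPM in SUM159 and 0, 0 and 0.0565 CPM in MDA-MB-231. KRT80 was the third keratin called higher in SUM159, a call lost with run 1 (0.90). The basal keratin genes KRT5, KRT14 and KRT17 did not exceed 0.948 CPM in any library. KRT81 and KRT86 were called higher in MDA-MB-231, but they are near-identical copies and their counts are uncertain, and the call of KRT86 was lost without any library other than MDA-MB-231 replicate 3 (-1.54 to -1.42). Of 10 luminal markers tested, 7 were higher in MDA-MB-231 and 2 higher in SUM159 (1 without MDA-MB-231 replicate 2 or 3). MLPH, a melanosome transport adaptor, was at 0.425, 0.664 and 0.356 CPM in SUM159 and 77.1, 80.1 and 78.3 CPM in MDA-MB-231, and SPDEF was at 0 in SUM159 and at least 163-fold higher in MDA-MB-231.

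The microRNA hosts gave 1 gene higher in SUM159 and 4 higher in MDA-MB-231 among 9 tested. MIR200CHG was at 0 in all 6 libraries. MIR23AHG was at 4.15, 3.68 and 2.99 CPM in SUM159 and 35.6, 33.7 and 32.6 CPM in MDA-MB-231, a log2 fold change of -3.23 ± 0.15 (SE, adjusted p = 1.45e-05). MIR222HG, from which miR-221 and miR-222 are cut, had a log2 fold change of -2.96 ± 0.25 (SE, adjusted p = 0.00038). MIR503HG, which holds miR-503 and ends short of the neighbouring miR-424, had 0.826, 0.464 and 0.857 CPM in SUM159 and 5.02, 5.54 and 5.41 CPM in MDA-MB-231, and DLEU2, which holds miR-15a and miR-16, had 3.2, 2.68 and 1.97 CPM in SUM159 and 10.6, 10.9 and 10.1 CPM in MDA-MB-231. The last did not keep its difference with the run 1 libraries, where its log2 fold change was 0.18. MIR155HG was at 1.23, 0.975 and 1.69 CPM in SUM159 and at 0 in MDA-MB-231, at least 21.6-fold higher. MIR100HG was not called, at 84.3, 87.8 and 84.9 CPM in SUM159 and 40.9, 42.4 and 36.6 CPM in MDA-MB-231. Host transcripts are not mature microRNAs, and miR-16 and miR-24 are each also encoded at another locus.

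Both lines carried abundant vimentin, and differed in which cadherins they held. VIM was at 1808, 1829 and 1867 CPM in SUM159 and 2627, 2593 and 2553 CPM in MDA-MB-231, a log2 fold change of -0.50 ± 0.017 (SE) that was not called. CDH2, or N-cadherin, was at 138, 144 and 136 CPM in SUM159 and 0.0479, 0.507 and 0.306 CPM in MDA-MB-231. CDH13 had 343, 329 and 308 CPM in SUM159 and 0.186, 0.643 and 1.69 CPM in MDA-MB-231, and CDH6 was also higher in SUM159. CDH11, the cadherin of osteoblasts, was at 0.0757, 0.401 and 0 CPM in SUM159 and 71.2, 74.8 and 68.8 CPM in MDA-MB-231, and CDH4 at 0.299, 0.3 and 0.493 CPM in SUM159 and 74.3, 68.3 and 73.2 CPM in MDA-MB-231. MDA-MB-231 thus held CDH11 and CDH4 where SUM159 held CDH2, CDH6 and CDH13, with no overlap of the libraries. NES, the intermediate filament nestin, was at 0 in SUM159 and at least 189.7-fold higher in MDA-MB-231. In the whole list of 22 cytoskeletal and adhesion genes, 6 were called higher in SUM159 and 8 higher in MDA-MB-231, with a median of -0.615. With run 1 these counts were 8 and 6, and the median was 0.303. CAV1, a coat protein of caveolae, was at 169, 184 and 188 CPM in SUM159 and 899, 872 and 881 CPM in MDA-MB-231, a log2 fold change of -2.30 ± 0.041 (SE, adjusted p = 6.75e-07), which was -0.40 and not called with the run 1 libraries.

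Matrix genes leaned to SUM159. Of 23 glycoproteins and proteoglycans tested, 11 were called higher in SUM159 and 6 higher in MDA-MB-231, with a median log2 fold change of 1.37. SPARC, a collagen-binding secreted protein, was at 396, 342 and 358 CPM in SUM159 and 0.877, 0.558 and 0.672 CPM in MDA-MB-231. FN1, or fibronectin, was at 1923, 1997 and 2001 CPM in SUM159 and 259, 220.2 and 233 CPM in MDA-MB-231, a log2 fold change of 3.06 ± 0.053 (SE, adjusted p = 3.18e-07). TGFBI, FBLN1 and DCN were also higher in SUM159. LOX, which crosslinks collagen, was at 5.68, 4.29 and 7.98 CPM in SUM159 and 146, 151 and 150.4 CPM in MDA-MB-231 and LOXL4 at 0.13, 0 and 0.065 CPM in SUM159 and 12, 12.8 and 14.2 CPM in MDA-MB-231. These crosslinking enzymes and THBS1, FBN1, MFAP2 and SRGN made up the 6 that were higher in MDA-MB-231.

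Among 22 collagens tested, 12 were higher in SUM159 and 4 higher in MDA-MB-231, with a median of 1.76. The chains COL4A5 and COL4A6, neighbours that share a promoter region, were at 143, 181 and 144 CPM in SUM159 and 0.123, 0.0319 and 0.0604 CPM in MDA-MB-231 for the first and 188, 205 and 193 CPM in SUM159 and 0.103, 0.197 and 0.093 CPM in MDA-MB-231 for the second. Neither exceeded 0.197 CPM in MDA-MB-231. COL1A1 was at 262, 271 and 270 CPM in SUM159 and 6.65, 4.04 and 5.96 CPM in MDA-MB-231, a log2 fold change of 5.62 ± 0.15 (SE, adjusted p = 8.30e-07), whereas COL1A2, its partner in type I collagen, did not exceed 0.375 CPM in any library. COL13A1, a transmembrane collagen, was at 2.13, 1.17 and 5.11 CPM in SUM159 and 214, 230.1 and 246 CPM in MDA-MB-231. The basement membrane chain COL4A2 and COL6A1 were higher in MDA-MB-231 as well. The collagen result depended on the SUM159 libraries. With run 1, 8 were higher in SUM159 and 6 in MDA-MB-231, with a median of 0.357, and COL6A3 went from 4.38 ± 0.25 (SE) to -1.25. COL5A1 went from 2.66 to -0.27.

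Laminins, which build the basement membrane, leaned the other way, with 1 of 10 tested higher in SUM159 and 4 higher in MDA-MB-231 (2 and 3 with run 1). LAMB1 was the SUM159 gene, at 217, 252 and 241 CPM in SUM159 and 34.4, 46.2 and 47.5 CPM in MDA-MB-231. LAMA4 was at 0.174, 0.167 and 0.117 CPM in SUM159 and 25.1, 34 and 38.5 CPM in MDA-MB-231, and LAMB3, a chain of laminin-332, had a log2 fold change of -2.84 ± 0.07 (SE, adjusted p = 1.39e-06). Matrix proteases and their inhibitors gave 5 genes higher in SUM159 and 12 higher in MDA-MB-231 of 22. MMP1, interstitial collagenase, was at 3.75, 4.03 and 4.09 CPM in SUM159 and 3061, 3099 and 3061 CPM in MDA-MB-231, a log2 fold change of -9.59 ± 0.12 (SE, adjusted p = 8.74e-08). MMP2, gelatinase A, was at 241, 212 and 231 CPM in SUM159 and 0.985, 1.54 and 0.951 CPM in MDA-MB-231, a log2 fold change of 7.62 ± 0.29 (SE, adjusted p = 2.55e-06). Its membrane activator MMP14 had 2.77, 1.92 and 4.36 CPM in SUM159 and 287, 259.9 and 283 CPM in MDA-MB-231. SUM159 was thus high in MMP2 with little MMP14, and MDA-MB-231 the reverse. PLAU, the urokinase, was at 19.9, 22.8 and 17.6 CPM in SUM159 and 549, 535 and 543 CPM in MDA-MB-231, its receptor PLAUR had a log2 fold change of -3.61 ± 0.096 (SE, adjusted p = 1.21e-06), and SERPINB2 was higher in MDA-MB-231 with them. SERPINB5, or maspin, was at 34.7, 28 and 37.5 CPM in SUM159 and 0.0411, 0.0393 and 0.302 CPM in MDA-MB-231.

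Of 16 integrins tested, 4 were called higher in SUM159 and 3 higher in MDA-MB-231 (43.8%), with a median of -0.108; with run 1 there were 6 and 2, with a median of 0.983. ITGA11, a collagen receptor chain, was at 53.5, 39.7 and 25.4 CPM in SUM159 and 0.277, 0.143 and 0.219 CPM in MDA-MB-231, and ITGA5, the fibronectin receptor chain, had a log2 fold change of 2.04 ± 0.067 (SE, adjusted p = 1.17e-05). ITGA6, a laminin receptor chain, was at 147, 144 and 113 CPM in SUM159 and 854, 916 and 908 CPM in MDA-MB-231. With the run 1 libraries the last was -0.65 on the log2 scale and was not called. ITGB1, ITGAV, ITGA2 and ITGA3 did not pass the test.

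Secreted inflammatory factors were mostly MDA-MB-231 genes. Of 23 cytokines and chemokines tested, 13 were higher in MDA-MB-231 and 4 higher in SUM159, with a median of -1.64. CXCL1, a neutrophil chemokine, was at 0.784, 0.186 and 0.484 CPM in SUM159 and 224, 221 and 223 CPM in MDA-MB-231. CCL2, a monocyte chemokine, had 0.0655, 0.13 and 0.261 CPM in SUM159 and 79.5, 79.9 and 78.8 CPM in MDA-MB-231, and CSF2, which encodes GM-CSF, 0.259, 0.195 and 0.26 CPM in SUM159 and 65.1, 65.6 and 63.7 CPM in MDA-MB-231. IL6 was at 2.47, 1.99 and 3.3 CPM in SUM159 and 30.9, 32.4 and 29.9 CPM in MDA-MB-231, a log2 fold change of -3.60 ± 0.18 (SE, adjusted p = 1.86e-05), and IL11 at 0.878, 0.661 and 0.622 CPM in SUM159 and 75.1, 70.7 and 79.7 CPM in MDA-MB-231. No SUM159 library reached the level of an MDA-MB-231 library for any of these. IL32 went the other way, at 554, 548 and 559 CPM in SUM159 and 5.93, 7.43 and 7.32 CPM in MDA-MB-231, a log2 fold change of 6.33 ± 0.10 (SE, adjusted p = 1.50e-07). TSLP was at 0 in MDA-MB-231 and at least 48.5-fold higher in SUM159. Other members turned with the SUM159 libraries: CXCL8, at 126, 125 and 122 CPM in SUM159 and 612, 631 and 626 CPM in MDA-MB-231, had a log2 fold change of -2.33 ± 0.035 (SE, adjusted p = 3.59e-07), which with run 1 was 1.36 and called in the opposite direction. CXCL3 turned in the same way, from -1.64 ± 0.11 (SE) to 1.29. Run 1 gave 8 cytokines higher in SUM159 and 7 higher in MDA-MB-231 of 25.

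Interferon-stimulated genes gave 11 of 30 higher in MDA-MB-231 and 2 higher in SUM159 (1 without any library other than MDA-MB-231 replicate 3). IFIT3 was at 1.24, 1.57 and 1.24 CPM in SUM159 and 61.7, 67.5 and 63.7 CPM in MDA-MB-231, a log2 fold change of -5.55 ± 0.19 (SE, adjusted p = 2.08e-06), and IFIT2, IFIT1 and OAS2 differed by similar amounts. RIGI, a sensor of viral RNA, had a log2 fold change of -3.37 ± 0.09 (SE, adjusted p = 1.35e-06). BST2 (tetherin) was one of the 2 higher in SUM159, at 91.6, 96.5 and 109.9 CPM in SUM159 and 14.8, 17.1 and 15.8 CPM in MDA-MB-231.

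Of 14 class I antigen presentation genes tested 4 were called (28.6%, near the 29.1% of all genes tested), all of them higher in SUM159 (2 without MDA-MB-231 replicate 3), among them ERAP2, an aminopeptidase that trims peptides for class I, at 60.2, 57.6 and 80.0 CPM in SUM159 and 16.7, 26 and 11.3 CPM in MDA-MB-231. The call of ERAP2, at a log2 fold change of 1.94 ± 0.27 (SE, adjusted p = 0.0209), was lost without MDA-MB-231 replicate 1 or 3 (1.93 and 1.63). TREAT gave 0 class I genes higher in MDA-MB-231 at an unadjusted p under 0.05 as well, and glmTreat and DESeq2 gave 0, while the moderated and quasi-likelihood tests against 0 gave 2 each. B2M, the light chain, was at 504, 501 and 539 CPM in SUM159 and 434, 459 and 443 CPM in MDA-MB-231 and was not called. HLA genes are polymorphic, and reads of an allele unlike the reference may be lost, so the HLA values are uncertain, and TAPBP was uneven between the MDA-MB-231 libraries, its call being lost without MDA-MB-231 replicate 3 or SUM159 replicate 1 or 2 (4.88 to 5.43). Of 10 class II genes 2 passed the filter, and both were higher in MDA-MB-231. The class II invariant chain gene CD74 was at 0.343, 0.346 and 0.243 CPM in SUM159 and 172, 156 and 165 CPM in MDA-MB-231, a ratio of 536 (counting interval 319 to 981), and its activator CIITA at 0.169, 0.227 and 1.04 CPM in SUM159 and 15.6, 15.1 and 18.6 CPM in MDA-MB-231, while HLA-DRA was at 0 in all 6 libraries. Of 19 checkpoint and surface ligands tested, 9 were higher in MDA-MB-231 and 1 higher in SUM159 (5 and 2 with run 1). NT5E, the adenosine-producing ectoenzyme CD73, was at 35.6, 36.9 and 31 CPM in SUM159 and 1203, 1186 and 1188 CPM in MDA-MB-231, a log2 fold change of -5.11 ± 0.064 (SE, adjusted p = 8.74e-08). CD274, which encodes PD-L1, was at 9.43, 14.4 and 5.54 CPM in SUM159 and 37.1, 45.5 and 39.1 CPM in MDA-MB-231, a log2 fold change of -2.15 ± 0.27 (SE, adjusted p = 0.00869), but was -0.16 and not called with run 1. PDCD1LG2, its relative PD-L2, had a log2 fold change of 1.51 ± 0.15 (SE, adjusted p = 0.0232), higher in SUM159, a call that was lost without MDA-MB-231 replicate 1 or 3 or SUM159 replicate 3 (1.45 to 1.47).

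Growth factor receptors and their ligands were called in both directions. EGFR was at 357, 358 and 336 CPM in SUM159 and 449.5, 483 and 465 CPM in MDA-MB-231 and was not called. Of its ligands EREG was higher in SUM159, at 231, 228 and 219 CPM in SUM159 and 38, 40.4 and 48.1 CPM in MDA-MB-231, and HBEGF higher in MDA-MB-231, at 10.3, 10.0 and 9.2 CPM in SUM159 and 249, 254 and 249 CPM in MDA-MB-231. EPGN was at 0 in MDA-MB-231 and at least 56.8-fold higher in SUM159. Among 26 other receptor tyrosine kinase genes, 6 were higher in SUM159 and 10 higher in MDA-MB-231. FGF2 was at 137, 119.5 and 122 CPM in SUM159 and 0.0782, 0.0827 and 0.141 CPM in MDA-MB-231, and PDGFRA at 45.2, 39.6 and 49.1 CPM in SUM159 and 0, 0.104 and 0.101 CPM in MDA-MB-231. FGF1 and FGF5 were instead higher in MDA-MB-231, FGF5 at 1.27, 2.28 and 0.459 CPM in SUM159 and 48.6, 59.7 and 68 CPM in MDA-MB-231. AXL, a receptor kinase, was at 195, 190.3 and 181 CPM in SUM159 and 1049, 1007 and 1054 CPM in MDA-MB-231, and its ligand GAS6 had a log2 fold change of -2.54 ± 0.067 (SE, adjusted p = 2.26e-06). Receptor and ligand were thus both higher in MDA-MB-231.

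In the insulin and IGF axis 8 of 16 genes tested were higher in MDA-MB-231 and 2 higher in SUM159. IRS1, an insulin receptor substrate, was at 12.1, 10.1 and 8.06 CPM in SUM159 and 148, 146 and 152 CPM in MDA-MB-231, a log2 fold change of -3.90 ± 0.12 (SE, adjusted p = 2.14e-06), and IGFBP1 at 0.0779, 0.125 and 0.156 CPM in SUM159 and 49.9, 50.1 and 47.5 CPM in MDA-MB-231. INSR was not called, at a log2 fold change of 1.67 ± 0.33 (SE). Insulin was in the SUM159 medium, and its part in these values cannot be told apart from that of the line. Ephrins and Eph receptors gave 4 higher in SUM159 and 3 higher in MDA-MB-231 of 14, with EPHA3 at 33.6, 31.4 and 30.4 CPM in SUM159 and 0.545, 1.02 and 1.16 CPM in MDA-MB-231.

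Of 36 TGF-beta and BMP genes 4 were higher in SUM159 and 8 higher in MDA-MB-231 (8 and 9 with run 1). The share of 33.3% is near the 29.1% of all genes tested, and the median was 0.25. The receptor TGFBR2 and the transducers SMAD2, SMAD3 and SMAD4 were not called. FST, which traps activins, was at 0.452, 0.227 and 0.0886 CPM in SUM159 and 144, 133 and 131 CPM in MDA-MB-231, INHBA, an activin subunit, at 0.0451, 0.19 and 0.19 CPM in SUM159 and 40.9, 43.2 and 48.3 CPM in MDA-MB-231, and BMP4 at 0.0884, 0.312 and 0.45 CPM in SUM159 and 48.4, 61.4 and 52.6 CPM in MDA-MB-231. For these genes, ligand and antagonist were higher in the same line. GDF15, a stress cytokine, was at 81.8, 65.9 and 81.3 CPM in SUM159 and 6.93, 5.34 and 5.59 CPM in MDA-MB-231. The WNT list gave 5 higher in SUM159 and 10 higher in MDA-MB-231 of 29 (3 and 10 of 27 with run 1). DKK1 was at 2.26, 1.42 and 1.07 CPM in SUM159 and 357, 359 and 364 CPM in MDA-MB-231 and DKK3 at 153, 155 and 163 CPM in SUM159 and 3.59, 3.93 and 3.18 CPM in MDA-MB-231, so the lines carried different members of this family of secreted inhibitors. RNF43, a ubiquitin ligase that removes WNT receptors, was at 7.39, 9.96 and 10.0 CPM in SUM159 and 0.73, 0.0523 and 0 CPM in MDA-MB-231.

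YAP1 itself was at 278, 277 and 259 CPM in SUM159 and 292, 266 and 291 CPM in MDA-MB-231 and was not called. Of the 22 genes of its list, 7 were higher in MDA-MB-231 and 1 higher in SUM159. The share called was 36.4%, not far from the 29.1% of all genes tested, and the median was -0.445. ANKRD1, a standard YAP target, was at 0.906, 0.65 and 0.591 CPM in SUM159 and 419.5, 418 and 432 CPM in MDA-MB-231, and CCN2 at 21.8 ± 2.04 CPM in SUM159 and 677 ± 3.49 CPM in MDA-MB-231 (SD, n = 3), a log2 fold change of -4.96 ± 0.07 (SE, adjusted p = 1.23e-07). CCN1, F3, AXL, TEAD1 and WWTR1, which encodes TAZ, were the others that were higher in MDA-MB-231, of which TEAD1 was not called with run 1 (-0.60). With run 1, 8 were higher in MDA-MB-231 and 3 higher in SUM159. NF2, an upstream brake, was the gene higher in SUM159, with a log2 fold change of 1.63 ± 0.13 (SE, adjusted p = 0.0037).

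Genes that ERK signalling switches on were higher in MDA-MB-231 in 9 of 19 cases and higher in SUM159 in 2, with a median of -1.31. DUSP6, a phosphatase of ERK, was at 26.6, 23.4 and 23.8 CPM in SUM159 and 498, 502 and 527 CPM in MDA-MB-231, a log2 fold change of -4.37 ± 0.078 (SE, adjusted p = 2.22e-07). DUSP4 was at 14.8, 14.2 and 17.1 CPM in SUM159 and 533, 526 and 513 CPM in MDA-MB-231, and FOSL1, an AP-1 subunit, had a log2 fold change of -2.29 ± 0.041 (SE, adjusted p = 6.59e-07). SPRED2 and DUSP5, also negative regulators, were the 2 higher in SUM159, SPRED2 losing its call without MDA-MB-231 replicate 3 (1.35) and DUSP5 with run 1 (0.069). Of 40 genes of the RAS, PI3K, p53 and RB pathways 4 were higher in SUM159 and 6 higher in MDA-MB-231, a share of 25% that is near the 29.1% of all genes tested. HRAS, BRAF and PIK3CA were not called, with log2 fold changes of -0.99, 0.94 and 0.78. PIK3R1, the regulatory subunit of PI3K, was at 408, 379.5 and 384 CPM in SUM159 and 30.8, 21.1 and 28.1 CPM in MDA-MB-231, a log2 fold change of 3.89 ± 0.12 (SE, adjusted p = 1.86e-06). MYC was at 1250, 1270 and 1274 CPM in SUM159 and 277, 268 and 276 CPM in MDA-MB-231, and CCNE2 at 9.5, 9.4 and 4.66 CPM in SUM159 and 59.1, 68 and 63.3 CPM in MDA-MB-231.

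Glucocorticoid response genes were called more often higher than lower in SUM159, the line grown with hydrocortisone. Of 21 tested, 9 were called higher in SUM159 and 3 higher in MDA-MB-231, and their median was 1.24. ZBTB16, a zinc finger factor induced by glucocorticoids, was at 87.2, 80.6 and 84.8 CPM in SUM159 and 0.145, 0.0764 and 0.0646 CPM in MDA-MB-231, a ratio of 842 (counting interval 360.3 to 2593). KLF9 was at 559, 549.9 and 558 CPM in SUM159 and 5.94, 5.68 and 6.66 CPM in MDA-MB-231, a log2 fold change of 6.50 ± 0.096 (SE, adjusted p = 1.23e-07), and TSC22D3, which encodes the glucocorticoid-induced leucine zipper, at 272, 253 and 265 CPM in SUM159 and 6.13, 8.57 and 8.39 CPM in MDA-MB-231. The SUM159 libraries lay far above those of MDA-MB-231 for all 3. FKBP5, a chaperone of the receptor, was at 552, 559.5 and 562 CPM in SUM159 and 85.2, 83.2 and 86.2 CPM in MDA-MB-231, a log2 fold change of 2.72 ± 0.036 (SE, adjusted p = 1.57e-07), and PER1 had one of 3.02 ± 0.20 (SE, adjusted p = 8.69e-05). The receptor gene NR3C1 was at 223, 224 and 178 CPM in SUM159 and 145, 146 and 137 CPM in MDA-MB-231, and its log2 fold change of 0.54 ± 0.095 (SE) was not called. SGK1 and ERRFI1, which glucocorticoids also induce in many cells, were lower in SUM159, although ERRFI1 was -0.12 on the log2 scale and not called with run 1, SGK1 at 16.1, 17.3 and 16.7 CPM in SUM159 and 94.9, 73.8 and 82.2 CPM in MDA-MB-231. DUSP1 was not called. Medium and line cannot be told apart here. With run 1, grown in the same medium, 12 were higher in SUM159 and 2 higher in MDA-MB-231.

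The integrated stress response, in which ATF4 switches on amino acid synthesis and transport, gave a one-sided list. Of 26 genes tested, 18 were higher in SUM159 and 2 higher in MDA-MB-231, with a median of 2.33, and with run 1 there were 17 and 2, with a median of 2.52. PHGDH, the first enzyme of serine synthesis, was at 206, 217 and 215 CPM in SUM159 and 4.83, 5.02 and 3.41 CPM in MDA-MB-231, a log2 fold change of 5.61 ± 0.15 (SE, adjusted p = 7.39e-07). PSAT1, which follows it, was at 709, 719 and 718 CPM in SUM159 and 169, 167 and 167 CPM in MDA-MB-231, but PSPH, the last step, was not called, at a log2 fold change of -0.66 ± 0.095 (SE). CBS of the transsulfuration pathway was at 41.1, 38.8 and 45.4 CPM in SUM159 and 0, 0 and 0.086 CPM in MDA-MB-231, and CTH, the next enzyme, had a log2 fold change of 3.61 ± 0.11 (SE, adjusted p = 2.24e-06). TRIB3, a pseudokinase, was at 815, 813 and 842 CPM in SUM159 and 24.5, 23.8 and 26.3 CPM in MDA-MB-231, and ASNS, asparagine synthetase, at 404, 391 and 419.8 CPM in SUM159 and 33.5, 39.7 and 39.8 CPM in MDA-MB-231, a log2 fold change of 3.43 ± 0.077 (SE, adjusted p = 6.75e-07). The cystine transporter SLC7A11 was at 328, 335 and 307 CPM in SUM159 and 43.3, 50.5 and 55.1 CPM in MDA-MB-231. ATF4 itself was not called, at 579, 573 and 582 CPM in SUM159 and 324, 321 and 319.6 CPM in MDA-MB-231. SHMT1 and VLDLR were the 2 that were higher in MDA-MB-231.

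The composite C/EBP-ATF element is written here as TGATGNAA, with the reverse complement TTNCATCA. Of the 18 genes higher in SUM159, 17 had an entry in the promoter table, with 27 promoters, and 4 promoters held it (14.8%) against 3.62% of all 35116 and 2.05% of those of tested genes. Only genes already called higher in SUM159 were searched, from a list chosen with earlier results of these data known. The shares are therefore a description and not a test. A match says nothing about binding in these cells. The 4 matches are printed with the element in capitals.
ASNS, chr7:97872458-97872487, minus strand: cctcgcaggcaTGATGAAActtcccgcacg
CHAC1, chr15:40953251-40953280, plus strand: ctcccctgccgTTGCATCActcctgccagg
HERPUD1, chr16:56931955-56931984, plus strand: gacgcggcgggTTGCATCAgcccgtgccca
SLC3A2, chr11:62881719-62881748, plus strand: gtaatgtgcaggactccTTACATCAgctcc
CHAC1, a glutathione-degrading enzyme, was at 41.2, 43.4 and 42.1 CPM in SUM159 and 4.32, 4.45 and 5.18 CPM in MDA-MB-231, HERPUD1 of the endoplasmic reticulum at 239, 245 and 251 CPM in SUM159 and 42, 36.5 and 46 CPM in MDA-MB-231, and SLC3A2, the heavy chain of amino acid transporters, at 573, 579.9 and 607 CPM in SUM159 and 158, 165 and 175 CPM in MDA-MB-231. Each was higher in every SUM159 library, but genes called higher in SUM159 were the only ones searched.

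NRF2 targets and aldo-keto reductases, which detoxify reactive molecules, gave 11 of 23 higher in SUM159 and 1 higher in MDA-MB-231. HMOX1, haem oxygenase, was at 401, 398 and 405 CPM in SUM159 and 8.83, 8.38 and 7.53 CPM in MDA-MB-231, a log2 fold change of 5.61 ± 0.087 (SE, adjusted p = 1.44e-07). FTH1, the ferritin heavy chain, was at 9513, 9515 and 9760 CPM in SUM159 and 683, 649 and 645 CPM in MDA-MB-231, a log2 fold change of 3.87 ± 0.045 (SE, adjusted p = 8.74e-08). AKR1C2 was at 61, 64.3 and 63.2 CPM in SUM159 and 0.14, 0.421 and 0.7 CPM in MDA-MB-231, but the AKR1C genes are close copies and their split is uncertain. NQO1, GCLM, GCLC and SRXN1, which are standard NRF2 targets, were not called. KEAP1, the inhibitor of NRF2, was the gene higher in MDA-MB-231, with a log2 fold change of -1.27 ± 0.07 (SE, adjusted p = 0.0123), a call that was lost without SUM159 replicate 1 or 2 (-1.24 and -1.23).

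In glycolysis and the hypoxia response 7 of 33 genes were higher in SUM159 and 4 higher in MDA-MB-231, a share of 33.3% that is near the 29.1% of all genes tested. The lactate transporters were called in opposite directions: SLC16A1 was at 112, 108 and 95.8 CPM in SUM159 and 0.227, 0.0708 and 0.408 CPM in MDA-MB-231, and SLC16A3 at 80.4, 64.9 and 69.7 CPM in SUM159 and 346, 312 and 299 CPM in MDA-MB-231. SUM159 thus held both, whereas SLC16A1 was near 0 in MDA-MB-231. HIF1A was at 1063, 1042 and 974 CPM in SUM159 and 334, 321 and 316 CPM in MDA-MB-231 and EPAS1 at 435, 457 and 418 CPM in SUM159 and 51, 37.5 and 50.6 CPM in MDA-MB-231, both higher in SUM159, whereas ADM, a hypoxia-induced hormone, was at 3.89, 4.43 and 5.5 CPM in SUM159 and 175, 162 and 165 CPM in MDA-MB-231. LDHA and ENO1 were called higher in MDA-MB-231, at log2 fold changes of -1.27 and -1.45, and were at 0.022 and 0.029 with run 1. Sterol and fatty acid genes gave 2 higher in SUM159 and 5 higher in MDA-MB-231 of 25 (3 without SUM159 replicate 2 or 3). That share of 28% is also near the 29.1% of all genes tested. FADS2, a fatty acid desaturase, was at 9.57, 14.2 and 10.9 CPM in SUM159 and 108, 123 and 109 CPM in MDA-MB-231, a log2 fold change of -3.31 ± 0.15 (SE, adjusted p = 1.13e-05). SCD, the desaturase that makes oleate, went the other way, at 422, 423 and 422 CPM in SUM159 and 106, 102 and 106 CPM in MDA-MB-231, a log2 fold change of 2.01 ± 0.034 (SE, adjusted p = 8.31e-07).

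Of 26 proliferation genes tested 17 were lower in SUM159 and none higher, and all 26 had a negative log2 fold change, with a median of -1.45. TYMS, thymidylate synthase, was at 18.7, 24.4 and 20.8 CPM in SUM159 and 363, 374 and 372 CPM in MDA-MB-231, a log2 fold change of -4.12 ± 0.088 (SE, adjusted p = 4.63e-07). AURKB had one of -3.84 ± 0.14 (SE, adjusted p = 3.96e-06). MKI67, the gene of the Ki-67 antigen, was at 170.3, 147 and 151 CPM in SUM159 and 367, 368 and 454 CPM in MDA-MB-231, a log2 fold change of -1.35 ± 0.11 (SE, adjusted p = 0.0317), and MCM2 at 163, 173 and 144 CPM in SUM159 and 168, 162 and 154 CPM in MDA-MB-231 was not called. MKI67 lost its call without SUM159 replicate 2 or 3 (-1.29 and -1.32), and MCM2 turned to 0.01 without MDA-MB-231 replicate 1 and to 0.07 without SUM159 replicate 3. The list depended on the SUM159 libraries, for with run 1 only 5 were called higher in MDA-MB-231 and 1 higher in SUM159, with a median of -0.448, and MKI67 was at 0.17.

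Of 12 breast cancer stem cell markers tested, 7 were higher in MDA-MB-231 and 2 higher in SUM159, with a median of -2.15, whereas with run 1 there were 4 and 1, with a median of -0.649. CD44 was at 272, 259.5 and 265 CPM in SUM159 and 1371, 1351 and 1303 CPM in MDA-MB-231, a log2 fold change of -2.34 ± 0.038 (SE, adjusted p = 4.79e-07), and CD24 at 1.26, 1.72 and 4.33 CPM in SUM159 and 21.4, 20.7 and 19.5 CPM in MDA-MB-231. With run 1 CD24 was -1.52 on the log2 scale and not called. The aldehyde dehydrogenases were exchanged, ALDH1A1 being at 5.76, 6.53 and 5.24 CPM in SUM159 and 0.0521, 0.0498 and 0.157 CPM in MDA-MB-231 and ALDH1A3 at 1.57, 1.75 and 1.65 CPM in SUM159 and 23.2, 21.5 and 16.9 CPM in MDA-MB-231. LGR5 was at 0 in SUM159 and at least 56.7-fold higher in MDA-MB-231.

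HOX genes, which fix position along the body axis, were called in directions that differed between clusters. HOXA genes were found in SUM159 and hardly at all in MDA-MB-231, where 10 of 11 were at 0 in all libraries; the 6 tested were all higher in SUM159, and their summed level was 34.6 against 0.349 CPM. HOXC followed, with 7 of 7 tested higher in SUM159 and sums of 117 and 2.84 CPM. HOXB had 2 of 3 tested higher in MDA-MB-231, with sums of 6.74 and 30.7 CPM, and HOXD 1 higher in SUM159 and 3 higher in MDA-MB-231 of 4. HOXA10 was at 17.6, 15.4 and 18.5 CPM in SUM159 against 0 in MDA-MB-231, at least 286-fold higher, and HOXC10 at 41.4, 37.7 and 48.3 CPM in SUM159 and 0.18, 0.125 and 0.185 CPM in MDA-MB-231. HOXB9 was at 5.5, 4.62 and 6.3 CPM in SUM159 and 25.6, 28.1 and 28.4 CPM in MDA-MB-231. HOXD8 was at 7.47, 5.33 and 6.46 CPM in SUM159 and at 0 in MDA-MB-231, whereas HOXD4 was at 0 in SUM159 and at 3.06, 3.17 and 2.28 CPM in MDA-MB-231. The HOXD cluster was thus split within itself. Of 39 HOX genes, 20 passed the filter, 14 were higher in SUM159 and 5 higher in MDA-MB-231, with a median of 5.2, or 4.97 with genes at 0 taken at their bound. Here too the filter can be passed by the high line alone, so the counts describe the list and are not a test of it.

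Cancer-testis genes, which are normally silent outside the germ line, were mostly higher in SUM159 where called. Of 40 listed, 16 passed the filter, with 14 higher in SUM159 and 1 higher in MDA-MB-231, and a median of 5.58, or 5.32 with bounds. The other 24 were not tested. Since the high line alone can pass the filter, these values describe the list and are not a test of it. With run 1, 10 were tested, of which 8 were called higher in SUM159 and 1 higher in MDA-MB-231. DDX43, an RNA helicase, was at 9.9, 7.83 and 9.34 CPM in SUM159 and 0, 0.0986 and 0.0466 CPM in MDA-MB-231, and MAGEC2 was at 0 in MDA-MB-231 and at least 41.4-fold higher in SUM159, but did not pass the filter with run 1. MAGEA6 was at 78.3, 86.9 and 86.7 CPM in SUM159 and 0.133, 0.0712 and 0.585 CPM in MDA-MB-231, but MAGEA, CSAG, XAGE and SPANX genes are multicopy families on the X chromosome and their reads may be split. PRAME and the CTAG genes were at or near 0 in both lines. S100 genes gave 3 higher in SUM159 and 4 higher in MDA-MB-231 of 10, with S100A4, a motility-associated member, at 3.38, 3.81 and 4.48 CPM in SUM159 and 17, 16.5 and 16.7 CPM in MDA-MB-231. Protocadherins gave 2 (1 without MDA-MB-231 replicate 1 or 3 or SUM159 replicate 1 or 2) and 5 of 15, the 5 all from the near-identical PCDHB cluster and so uncertain.

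The largest differences lay outside these lists in part. IRX2, a homeobox factor, was at 4611, 4582 and 4606 CPM in SUM159 and 0.997, 1.71 and 0.557 CPM in MDA-MB-231. CD109, a membrane protein that binds TGF-beta, was at 359.5, 370.2 and 361 CPM in SUM159 and 0.0455, 0.14 and 0.0822 CPM in MDA-MB-231, and MME, the neprilysin of myoepithelial cells, at 161, 156 and 144 CPM in SUM159 and 0, 0.255 and 0 CPM in MDA-MB-231. Of 11 basal and myoepithelial markers tested, MME and TP63 were higher in SUM159 and 4 were higher in MDA-MB-231, among them MYLK, ITGA6 and CAV1 (with run 1, 4 in SUM159 and 1 in MDA-MB-231), the call of MYLK being lost without any library other than MDA-MB-231 replicate 2 or SUM159 replicate 1 (-3.16 and -3.69 there, -3.07 to -2 otherwise). NETO2, CADM3, GAL and CSMD1 were among the 10 protein-coding genes with the largest excess in SUM159, as was ZNF469, at 0 in MDA-MB-231 and at least 1016-fold higher in SUM159. CADM3 did not pass the filter with the run 1 libraries. On the side of MDA-MB-231, G0S2, an inhibitor of lipolysis, was at 0.13, 0 and 0.26 CPM in SUM159 and 159.9, 143 and 151 CPM in MDA-MB-231, SLAIN1 at 0 in SUM159 and at least 484-fold higher, and ZNF521 at least 441-fold higher. SDR42E1, ACSS3, STXBP6, ANOS1, CALB2 and CHST10, with MMP1, completed that set of 10. In all, 140 called genes were at 0 in every MDA-MB-231 library and 200 at 0 in every SUM159 library.

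By position, several genes around CDKN2A on chromosome 9 were at or near 0 in both lines. CDKN2A (chr9:21967752-21995301, minus strand, GRCh38), which encodes p16, had 0.124, 0 and 0 CPM in SUM159 and 0, 0 and 0 CPM in MDA-MB-231, and CDKN2B was at 0 in MDA-MB-231 and at a mean of 0.0217 ± 0.0375 CPM (SD, n = 3) in SUM159. MTAP, its neighbour, was at 0.284, 0.319 and 0.908 CPM in SUM159 and 0.121, 0.815 and 0.226 CPM in MDA-MB-231. CDKN2B-AS1, an antisense RNA that overlaps CDKN2A and CDKN2B, was called higher in SUM159, at 0.96, 1.3 and 1.19 CPM in SUM159 and 0.125, 0.134 and 0.196 CPM in MDA-MB-231, a ratio of 7.24 (counting interval 3.42 to 17.6); without known strandedness its reads cannot be told apart from those of the overlapped genes. Of 10 genes listed for the region 5 passed the filter, 3 of them higher in SUM159 and 2 higher in MDA-MB-231. IFNE, MIR31HG and DMRTA1 were at 0 in all 6 libraries. On the telomeric side KLHL9 was at 10.9, 9.62 and 9.62 CPM in SUM159 and 0.0625, 0.0598 and 0 CPM in MDA-MB-231 and MLLT3 at 0.177, 1.11 and 0.0355 CPM in SUM159 and 41.6, 36.8 and 34 CPM in MDA-MB-231, and on the centromeric side ELAVL2 was found in SUM159 alone, at 1.93, 1.29 and 1.44 CPM. KLHL9 was thus present in SUM159 and near 0 in MDA-MB-231, and MLLT3 the reverse. TUSC1, further out, was at 8.94, 9.17 and 7.99 CPM in SUM159 and 7.5, 8.49 and 6.61 CPM in MDA-MB-231 and not called. DNA copy number was not measured.

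In one block of chromosome 19 zinc finger genes were mostly lower in SUM159. Among 10 Mb windows with at least 20 tested genes, this block had the lowest median log2 fold change (-2.19). It stands out in these same values, so the counts given for it are a description and not a test. Of all 40 genes tested there, 24 were higher in MDA-MB-231 and 1, the noncoding RNA gene LINC00662, was higher in SUM159. Of 22 zinc finger (ZNF) genes tested between 20 and 30 Mb, 15 were higher in MDA-MB-231 and none higher in SUM159, with a median of -3.05, and with run 1 there were 12 and none, with a median of -1.9. Elsewhere on the chromosome 7 of 192 were higher in SUM159 and 40 higher in MDA-MB-231, with a median of -0.477, and on other chromosomes 20 and 18 of 208, with a median of 0.034. Among the ZNF genes of the block 0 were higher in SUM159 at an unadjusted TREAT p under 0.05 or by glmTreat, DESeq2, the moderated test or the quasi-likelihood test. ZNF90 was at 0, 0 and 0.101 CPM in SUM159 and 9.05, 8.13 and 11.4 CPM in MDA-MB-231, and ZNF486 at 0.159, 0 and 0.154 CPM in SUM159 and 13.4, 14.8 and 21.4 CPM in MDA-MB-231. These genes are recent copies of one another, so the level of each is uncertain, although the called ZNF genes of the block shared 1 direction. Over whole chromosomes the median log2 fold change ran from -0.532 on chromosome 20 to 0.428 on the X chromosome, a narrow range beside the differences of single genes.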

How the data were processed

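The authors sequenced single ends of 50 bp. What they deposited are estimated counts per gene, from Salmon at the transcript level and brought to genes by tximport with scaling for transcript length, and with no normalization between libraries. Salmon's version, the annotation release and the strandedness are not given in the sources used here, so overlapping antisense genes and near-identical copies are uncertain. Genome positions are on GRCh38, from GENCODE 44, which held 56347 of the 57165 deposited gene IDs. Libraries held 15461200 to 17124402 counts, which limits what can be said of genes with a few counts.

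The main test took voom, limma and TREAT from the study's methods; scaling, filter and thresholds were chosen for this report. It used limma 3.58.1 in R 4.3.3 (0.5 added to each count), TMM scaling from edgeR 4.0.16, genes kept by filterByExpr at a minimum count of 10, and TREAT at a log2 fold change of 1, with two-sided Benjamini-Hochberg adjusted p-values under 0.05. Only the 6 run 2 wild type libraries entered. Estimated counts were rounded for edgeR's and DESeq2 1.42.0's own tests. Where all libraries of a line were at 0, a fold is a lower bound against 3 counts over that line. With up to 30 counts in the lower line, the ratio of pooled levels is given with an exact 95% binomial counting interval, which covers counting error only. Simulated data had 200 changed genes, and 14724 genes passed the filter. TREAT recovered 93.0% of genes with a true log2 change of 3, 26.0% where it was 1.5, and called none of 14528 unchanged genes (limma's moderated test called 9). In the real comparison 29.1% of genes were called, a much larger share, so recovery there may differ. The unchanged genes had a true change of 0, well inside the 2-fold limit of TREAT, so their result says little about false calls near that limit.

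The members and the 44 gene lists were chosen with earlier results of these data known, so lists get counts and medians and no set test. Named genes were a fixed set of markers, the 10 called protein-coding genes with the largest change in each direction, and up to 3 called genes per list and direction, all with values that do not overlap between lines. Other genes were chosen after their values were seen. Genes of the Y chromosome and XIST were left out, and some genes that the rule names are not reported here. Positions were summarised by whole chromosome and by 10 Mb windows, because the annotation used gives no arm boundaries. Alternatives were other tests, scalings, filters, weights, library sets and each library left out.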

Additional observations from a re-analysis of the deposited data

How the results depend on the processing

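The count of 4399 called genes (1970 higher in SUM159 and 2429 higher in MDA-MB-231) was within 1.5 times of itself under the other scalings, filters, weights and library sets, under edgeR's glmTreat and under DESeq2, and leaving out each library in turn gave 4200 to 4241. Tests against smaller differences called more: limma's moderated test against 0 gave 11415 (5590 and 5825), edgeR's quasi-likelihood test 11304 (5539 and 5765), TREAT at a 1.2-fold difference 9374 (4569 and 4805), and the moderated test with a log2 fold change over 1 gave 3010 higher in SUM159. These tests ask for less by construction.

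Same-numbered libraries of the lines showed no sign of deviating together (r = -0.0608, 0.00855 and -0.0062 for numbers 1, 2 and 3). With 3 libraries per line this cannot exclude a pairing. With the replicate number as a block 4196 genes were called, 4118 of them also called without it. Libraries of a few counts per gene limit the genes at or near 0.

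Of 249 genes named in the report that have a fold change, 21 changed direction with the run 1 SUM159 libraries. The log2 fold change then was -0.04 for B2M, -0.27 for COL5A1, -1.25 for COL6A3, 1.29 for CXCL3, 1.36 for CXCL8, 0.18 for DLEU2, 0.08 for EGFR, 0.03 for ENO1, -1.45 for ESRP1, -0.07 for GCLC, -0.29 for GCLM, 1.58 for ITGA2, 0.33 for ITGB1, 0.02 for LDHA, 0.17 for MKI67, 0.84 for NQO1, 0.53 for SMAD3, -0.45 for SNAI1, -0.14 for SRXN1, -0.06 for TUSC1 and 0.39 for VIM; the cause was not tested. Within run 2 only ITGA2 (-0.05 to 0.01 with each library left out, above 0 without SUM159 replicate 3) and MCM2 (-0.06 to 0.07, with 0.01 without MDA-MB-231 replicate 1 and 0.07 without SUM159 replicate 3) changed direction, both close to 0 throughout.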
